A study of Mus musculus with 12 samples.

Results

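This account follows 10 genes of major histocompatibility complex (MHC) class I presentation in the spleen and duodenum of mice, namely H2-K1, H2-D1, H2-Q6, H2-Q7, H2-T23, B2m, Tap1, Tap2, Tapbp and Nlrc5. They were taken by name, as 10 of the 23329 gene rows of the count tables, and all 10 had a row and passed the filter on low counts in each comparison. These genes, and the gene lists used below, were chosen with earlier results of these data known. The animals were wild type C57BL/6J mice aged 2 months. The tested groups, duodenum AC H6 and spleen AC H6, came from mice that had received AC H6, an antibody that switches on LTbR, the lymphotoxin beta receptor, as 100 ul of a 1 mg/ml solution. Duodenum isotype and spleen isotype came from mice given an isotype control, an antibody that lacks that target. Tissue was taken after 24 hours, and each of the 4 groups has 3 libraries. The design text speaks of a dose per mouse, but the labels do not state that the 3 libraries of a group are 3 separate mice, so each p-value speaks of spread among libraries that may be technical.

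A class I molecule is a polymorphic heavy chain held together by the light chain beta-2-microglobulin, with a short peptide from inside the cell in its groove. The peptide is cut by the proteasome, carried into the endoplasmic reticulum by the TAP transporter, and fitted while tapasin holds the empty chain beside that transporter. CD8 T cells read the loaded complex at the cell surface, and natural killer (NK) cells sense its absence. Nlrc5 is a member of the NOD-like receptor family that enters the nucleus, joins factors bound to the so-called SXY elements of class I promoters and drives these genes, as its relative Ciita does for class II. Nearly all nucleated cells carry class I, with high levels on lymphocytes, which fill the spleen.

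Total counts per library ran from 13874091 to 45847467. The tissue labels matched their markers: the summed level of 8 enterocyte genes was 26364 to 28739 CPM over the 6 duodenum libraries and 26.4 to 36.9 CPM over the 6 spleen libraries. The summed level of 5 B cell genes was 11.4 to 17.3 CPM in duodenum and 2025 to 2729 CPM in spleen. The extraction text names brain, a tissue no label gives, and the summed level of 6 neuron and glia genes was 47.7 to 61.2 CPM in duodenum and 73.4 to 86.5 CPM in spleen. Most of these sums was 1 gene, Mbp, at 33.4 to 42.8 CPM in duodenum and 57.6 to 64.7 CPM in spleen. Snap25, a neuron gene of the list, was at 6.15 to 8.01 CPM in duodenum and at most 0.0202 CPM in any spleen library. CPM, the unit of all levels here, is a count over its library size, scaled to a common size by the trimmed mean of M values (TMM) over all 12 libraries.

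All genes of the set except B2m on chromosome 2 and Nlrc5 on chromosome 8 lie in the MHC on chromosome 17. The upstream stretch of 5 of them is shown. Each holds letter runs of some of the elements by which Nlrc5, interferon and NF-kB factors are known to act on class I genes. Genes with the same runs differed in the size of their change, and no link between the 2 was tested. The sequences are those of RefSeq on GRCm38.p6, each read 5′ to 3′ on the strand of the gene. Capitals mark, where present and in order of position, an NF-kB letter run, an interferon response letter run, and the X2 and Y letter runs of the SXY module. They run at chr17:34000354-34000463 (minus strand) for H2-K1, chr17:35262918-35263027 (plus) for H2-D1, chr17:35424672-35424780 (plus) for H2-Q6, chr17:35439017-35439124 (plus) for H2-Q7 and chr2:122147604-122147643 (plus) for B2m.
H2-K1: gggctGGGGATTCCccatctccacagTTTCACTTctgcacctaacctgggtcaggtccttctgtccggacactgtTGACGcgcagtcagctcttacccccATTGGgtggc
H2-D1: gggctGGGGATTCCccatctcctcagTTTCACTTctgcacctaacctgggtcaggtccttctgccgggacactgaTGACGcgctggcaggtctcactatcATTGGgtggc
H2-Q6: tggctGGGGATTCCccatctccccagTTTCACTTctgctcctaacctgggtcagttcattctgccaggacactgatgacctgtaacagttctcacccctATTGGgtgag
H2-Q7: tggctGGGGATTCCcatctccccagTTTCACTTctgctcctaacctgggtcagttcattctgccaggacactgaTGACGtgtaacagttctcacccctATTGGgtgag
B2m: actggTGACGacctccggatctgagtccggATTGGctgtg

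The letters searched on both strands were GGGGATTCC for NF-kB, AAGTGAAA for interferon regulatory factors, which reads TTTCACTT on the strand shown, TGACG for X2 and ATTGG for Y. They and the spacing were chosen after these promoters had been looked at, and no marked runs overlap. Among 32544 promoter windows of 300 bases, GGGGATTCC was in 0.252%, AAGTGAAA in 1.61%, TGACG in 20.9%, ATTGG in 37.4%, and TGACG followed 17 to 23 bases later by ATTGG in 0.332%. Of the 8 genes of the set with a window in that table, H2-K1, H2-D1, H2-Q6 and H2-Q7 held the NF-kB and interferon runs side by side. The X2-then-Y spacing was found in H2-K1, H2-D1, H2-Q7 and B2m. H2-Q6 holds the other 3 runs but not the TGACG letters. None of these pairs was found in the windows of H2-T23, Tap1 and Tapbp. A match is a run of letters and not a measured binding site, and a window without one says only that these letters are not in it.

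In the duodenum every gene of the set was higher in the AC H6 libraries than in the isotype libraries: heavy chains, light chain, transporter, tapasin and Nlrc5. In all, 10 of 10 passed an adjusted p under 0.05 in edgeR's quasi-likelihood test (Benjamini-Hochberg), against 18.5% of 15667 genes tested called higher and 16.1% called lower. The lowest AC H6 library lay above the highest isotype library for 10 of 10, against 24% of all genes. The set was not chosen blind to the data and its 5 heavy chain rows can share reads. The shares over all genes are thus given for scale, not as a test of the set. The median change of the set was 0.61 on the log2 scale, against 0.01 over all genes tested, and single genes ran between 0.26 for H2-T23 and 1.22 for Nlrc5. In bulk tissue, fewer or more cells of a type and less or more RNA per cell cannot be told apart.

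Nlrc5, the transactivator, had the largest change of the set and the lowest level. It was at 9.54, 9.95 and 10.9 CPM in the duodenum AC H6 libraries, against 4.62, 4.17 and 4.48 CPM in the duodenum isotype libraries. The groups were well apart, with each AC H6 library at more than any isotype library. These levels rest on 275 to 403 counts per library under AC H6 and 91 to 120 under isotype. The log2 fold change was 1.22 ± 0.11 (SE), with a 95% interval of 0.98 to 1.46 and an edgeR adjusted p of 1.18e-04. In fold terms Nlrc5 was 2.33 times as high after AC H6.

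Among the classical heavy chains, which present peptides to CD8 T cells, H2-K1 was at 1663, 1645 and 1538 CPM in the AC H6 libraries, against 1330.3, 1288 and 1290.4 CPM in the isotype libraries. H2-D1 stood at 1172, 1134 and 1118 CPM under AC H6, against 842, 868 and 830.4 CPM under isotype. Both were among the most abundant rows of the set and among its smaller changes. H2-K1 rose by 0.33 ± 0.05 (SE) on the log2 scale (edgeR adjusted p = 0.00232) and H2-D1 by 0.45 ± 0.05 (edgeR adjusted p = 3.50e-04). The interval of H2-K1 was 0.21 to 0.45 and that of H2-D1 0.34 to 0.56.

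The rows H2-Q6 and H2-Q7 stand for Qa-2, a non-classical class I molecule with little polymorphism. H2-Q6 was at 65.4, 64.4 and 60.8 CPM in duodenum AC H6, against 36.3, 42.4 and 39.5 CPM in duodenum isotype. H2-Q7 gave 83.6, 79.0 and 77.0 CPM in duodenum AC H6, against 43.6, 47.9 and 44.9 CPM in duodenum isotype. The Qa-2 rows had larger fold changes, and lower counts, than the classical chains. H2-Q6 rose by 0.71 ± 0.06 (SE; edgeR adjusted p = 9.90e-05) and H2-Q7 by 0.83 ± 0.05 (SE; edgeR adjusted p = 2.58e-05). With the counts of both rows added, the log2 change was 0.77 ± 0.07 (SE; edgeR adjusted p = 1.16e-04).

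H2-T23, the chain of Qa-1, which shows leader peptides of other class I chains to the NK receptor CD94/NKG2, had the smallest change. It was at 453.9, 431 and 401 CPM in duodenum AC H6, against 379, 359 and 348 CPM in duodenum isotype. The lowest AC H6 library was above the highest isotype library by little. H2-T23 rose by 0.26 ± 0.07 on the log2 scale (SE; edgeR adjusted p = 0.018). This call was lost, with edgeR adjusted p of 0.0746, 0.068 and 0.0697, when duodenum AC H6 replicate 1, duodenum AC H6 replicate 2 or duodenum isotype replicate 3 was left out. The change was then 0.22, 0.25 and 0.23.

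B2m, the light chain shared by all these molecules, was at 1854, 1932 and 1934 CPM in duodenum AC H6, against 1492, 1549.8 and 1520.2 CPM in duodenum isotype. It rose by 0.34 ± 0.05 (SE; edgeR adjusted p = 9.74e-04), close in size to H2-K1. Set against the light chain, the heavy chain rows had ranges that overlapped between treatments: the summed CPM of the 5 heavy chain rows was 1.75 ± 0.10 times that of B2m in duodenum AC H6 and 1.71 ± 0.05 times in duodenum isotype (SD, n = 3 each). Summed, the 5 rows rose by 0.38 ± 0.05 on the log2 scale (SE; edgeR adjusted p = 6.60e-04).

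The transporter subunits moved by like amounts. Tap1 was at 62.4, 63.3 and 56.3 CPM in duodenum AC H6, against 43.6, 39.4 and 35.4 CPM in duodenum isotype. Tap2 was at 82.8, 90.1 and 77.9 CPM in duodenum AC H6, against 59.6, 57.7 and 52.3 CPM in duodenum isotype. For both genes the groups were apart. Tap1 rose by 0.64 ± 0.08 (SE; edgeR adjusted p = 8.40e-04) and Tap2 by 0.58 ± 0.08 (SE; edgeR adjusted p = 8.67e-04). The ratio of Tap1 to Tap2 in CPM was 0.726 ± 0.026 under AC H6 and 0.697 ± 0.030 under isotype (SD, n = 3 each).

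Tapbp encodes tapasin, the chaperone that bridges the transporter and the empty class I molecule. Its levels were 403, 393 and 375 CPM in duodenum AC H6, against 265, 255 and 237 CPM in duodenum isotype. The groups did not overlap. Tapbp rose by 0.65 ± 0.06 on the log2 scale (SE; edgeR adjusted p = 2.58e-04), beside 0.33 for H2-K1 and 0.45 for H2-D1, the chains it serves; the differences between genes were not tested.

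**Figure D1:**
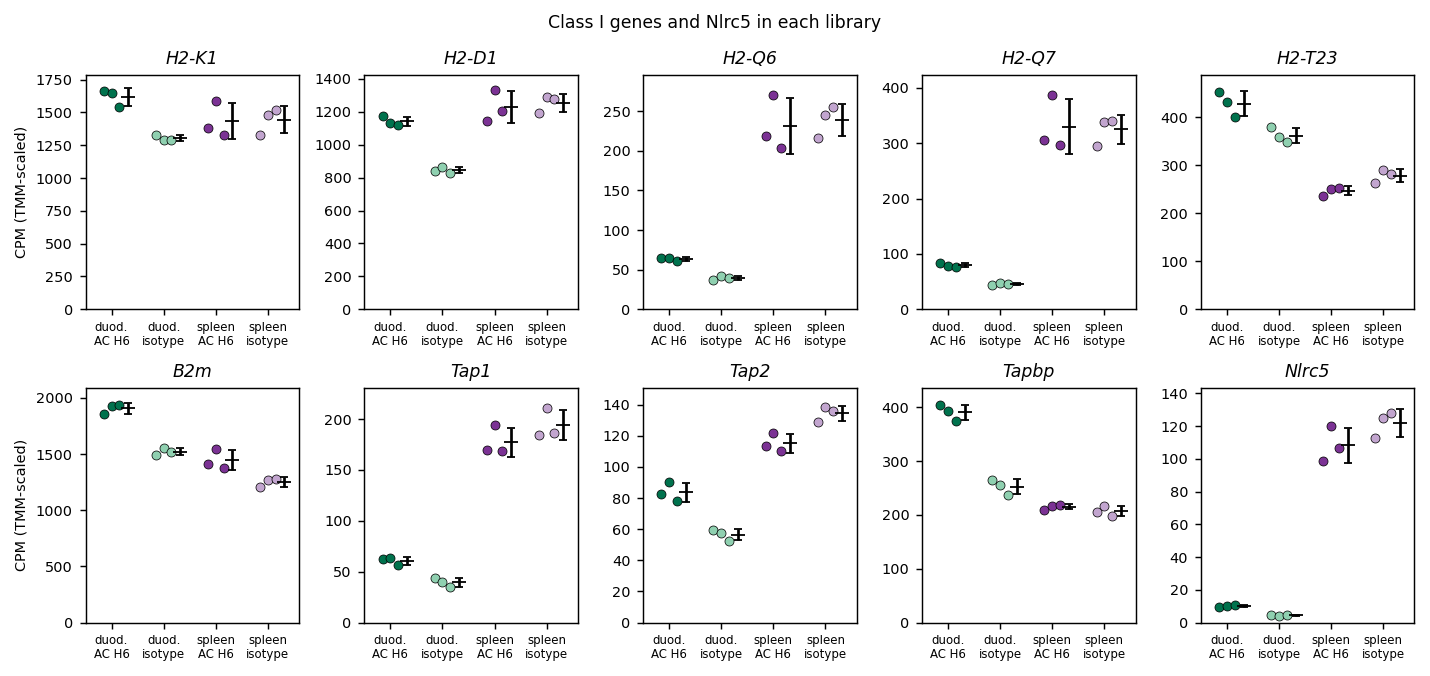
Level of each gene in CPM (TMM-scaled) on a linear axis from 0, with 1 point per library in duodenum AC H6, duodenum isotype, spleen AC H6 and spleen isotype, and the mean with SD (n = 3) as a bar beside the points. The AC H6 points lie above the isotype points in the duodenum for all 10 genes, while H2-Q6, H2-Q7, Tap1 and Nlrc5 are far higher in the spleen than in the duodenum.

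Other things moved in the same duodenum libraries. The summed level of 6 dendritic cell markers was 56.1 to 59.5 CPM in AC H6, against 28.7 to 32.5 CPM in isotype, and 5 of the 6 were called higher. The macrophage and monocyte markers summed to 156 to 170.2 CPM in AC H6, against 101 to 103 CPM in isotype, with 5 of 5 tested called higher. For neutrophil markers the sums were 61.7 to 79.2 CPM in AC H6, against 27.9 to 33.5 CPM in isotype, with 4 of 5 tested called higher. Most of these sums was Mmp9, at 54.9 to 70.8 CPM in AC H6 and 24.6 to 30.4 CPM in isotype. Under isotype 6 of the 7 neutrophil markers were called lower in duodenum than in spleen. Mmp9 was not (log2 difference 0.29, edgeR adjusted p = 0.053), so the sums do not stand for neutrophils alone. Csf3r, S100a8 and S100a9, at most at 5.21 CPM, rose by 1.53, 1.38 and 0.84 on the log2 scale. Ngp, under 1 CPM, was not called (-0.07). Lymphocyte markers were nearer to each other: 6 T cell markers summed to 47.2 to 49.5 CPM in AC H6 and 38.9 to 41.3 CPM in isotype, with 3 called higher. The 5 B cell markers summed to 15.2 to 17.3 CPM in AC H6 and 11.4 to 13.5 CPM in isotype, with 1 called higher, and the 5 NK cell markers to 57.0 to 60.0 CPM and 52.7 to 57.1 CPM, with 1 of 4 tested called higher. The T and B cell sums did not overlap between treatments. Most of the NK cell sum was Gzma, not called, at 52.4 to 54.9 CPM in AC H6 and 48.5 to 53.2 CPM in isotype. The NK marker called was Prf1, at 0.480 to 0.832 CPM in AC H6 and 0.313 to 0.356 CPM in isotype. The enterocyte markers summed to 26364 to 28628 CPM in AC H6 and 28280 to 28739 CPM in isotype, with 2 of 8 called higher and 5 lower. The 5 endothelial markers summed to 289.8 to 309.7 CPM in AC H6 and 244 to 275 CPM in isotype, with 3 called higher, and those of red cell precursors to 169 to 249 CPM and 187 to 452 CPM, with 0 of 6 called. Of these lists no marker was at 0 in all libraries of a duodenum group. The part of these cell types in the changes of the class I genes was not tested.

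The duodenum libraries also differed in pancreatic acinar markers, which summed to 19.6 to 5186 CPM in AC H6 and 11.1 to 1445 CPM in isotype. Without duodenum AC H6 replicate 3 and duodenum isotype replicate 1, the libraries with the largest amylase and ribosomal precursor shares, 10 of 10 class I genes were still called higher. That check was added after the data had been seen.

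In the spleen none of the 10 genes passed the test. With edgeR 0 of 10 were called, against 3.98% of 15270 genes called in either direction, and 3 had an unadjusted p under 0.05, against 27.9% of all genes. DESeq2 called 1, B2m (adjusted p = 0.0416), and limma-voom called 0. The median change was -0.04 on the log2 scale, against -0.0009 over all genes, and the range was -0.22 for Tap2 to 0.21 for B2m. The share of all spleen genes called depended on single libraries, with between 14 and 1132 genes called when 1 library was left out.

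Nlrc5 was at 98.8, 120 and 106 CPM in spleen AC H6, against 113, 125 and 128 CPM in spleen isotype. The groups overlapped, and the log2 fold change was -0.17 with a 95% interval of -0.37 to 0.03 (edgeR adjusted p = 0.244). The upper end of that interval lies below the lower end of the duodenum interval.

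The spleen groups did not overlap for B2m, Tap2 and H2-T23. B2m was at 1412, 1547 and 1379.9 CPM in spleen AC H6, against 1203 to 1279.5 CPM in spleen isotype, and its log2 fold change was 0.21 ± 0.06 (SE; edgeR adjusted p = 0.0954). Tap2 was at 110.1 to 122 CPM in spleen AC H6, against 129 to 138 CPM in spleen isotype, with a log2 fold change of -0.22 ± 0.06 (SE; edgeR adjusted p = 0.0879). H2-T23 was at 237 to 254 CPM in spleen AC H6, against 263 to 291 CPM in spleen isotype, with a log2 fold change of -0.17 ± 0.06 (SE; edgeR adjusted p = 0.127). That is 1 gene of 10 apart with AC H6 above, against 15.8% of all genes, and 2 of 10 with AC H6 below, against 16.9%.

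The remaining spleen values overlapped between the groups. H2-K1 averaged 1433 ± 137 CPM in spleen AC H6 and 1445 ± 100.1 CPM in spleen isotype, and H2-D1 averaged 1228 ± 97.1 and 1253 ± 53.4 CPM (SD, n = 3 each). Their log2 fold changes of -0.01 and -0.03 had 95% intervals of -0.21 to 0.19 and -0.19 to 0.14. H2-Q6 and H2-Q7 had wider intervals, -0.31 to 0.22 and -0.23 to 0.28. In spleen AC H6 replicate 2 these rows, at 271 CPM for H2-Q6 and 387 CPM for H2-Q7, were above all other spleen libraries. Tap1 had an interval of -0.32 to 0.06 and Tapbp one of -0.07 to 0.18. A change of the size seen in the duodenum thus lay outside the spleen interval for H2-K1, H2-D1, H2-Q6, H2-Q7, H2-T23, Tap1, Tap2, Tapbp and Nlrc5, and inside it for B2m.

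The spleen libraries differed between treatments in other cell markers. The 7 neutrophil markers summed to 1249 to 1787 CPM in spleen AC H6 and 419.7 to 639 CPM in spleen isotype, with 7 of 7 called higher. The 5 B cell markers summed to 2025 to 2325 CPM and 2571 to 2729 CPM, with 1 called lower, and the 6 T cell markers to 337 to 373 CPM and 408 to 471 CPM, with 1 called lower. Macrophage and monocyte markers summed to 966.5 to 1026 CPM and 699 to 759.7 CPM, with 3 of 6 called higher, dendritic cell markers to 203 to 243 CPM and 234 to 259 CPM, with 0 of 6 called, and NK cell markers to 77.1 to 86.2 CPM and 85.04 to 98.3 CPM, with 1 of 5 called lower. Markers of red cell precursors summed to 57999 to 129530 CPM in spleen AC H6 and 25001 to 73069 CPM in spleen isotype, with 0 of 6 called. Their part in the class I values was not tested.

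Whether the treatment difference itself differed between the tissues was tested as an interaction over all 12 libraries, duodenum change minus spleen change. Both tissues share 1 filter, 1 set of TMM factors and 1 dispersion trend in this fit, although they differ widely in composition. A shared fit of all 12 libraries called 1390 genes in spleen, against 608 in the spleen fit, with 0 genes of the set in both. The interaction was positive and called for 8 of 10 genes, against 10.9% of 16655 genes called higher and 9.13% called lower. Nlrc5 had an interaction of 1.37 ± 0.12 on the log2 scale (SE; edgeR adjusted p = 2.79e-05). For H2-Q7 it was 0.79, for Tap2 0.78, for Tap1 0.75 and for H2-Q6 0.73. Tapbp followed at 0.57, H2-D1 at 0.46 and H2-T23 at 0.41, and the edgeR adjusted p of these genes ran between 3.92e-04 for Tap2 and 0.00662 for H2-T23. B2m was not called, with 0.11 ± 0.09 and a 95% interval of -0.07 to 0.30 (edgeR adjusted p = 0.388).

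H2-K1 was close to the threshold, with an interaction of 0.32 ± 0.11 (SE; edgeR adjusted p = 0.0616). It was called by DESeq2 (adjusted p = 0.0461), by limma-voom (adjusted p = 0.0368), and by edgeR without the haemoglobin, Rn45s, Lars2 and amylase 2 genes (adjusted p = 0.0352). It was called as well without spleen isotype replicate 1 (0.42, edgeR adjusted p = 0.0385) or spleen AC H6 replicate 2 (0.40, edgeR adjusted p = 0.014). The sum of the 5 heavy chain rows had an interaction of 0.38 ± 0.11 (SE; edgeR adjusted p = 0.0255). That call was lost without duodenum AC H6 replicate 1, duodenum isotype replicate 2, spleen AC H6 replicate 1, spleen AC H6 replicate 3 or spleen isotype replicate 3, with edgeR adjusted p of 0.0525, 0.0515, 0.0526, 0.0682 and 0.0581. The summed Qa-2 rows kept theirs in all 12 fits, at 0.76 ± 0.13 with all libraries (SE; edgeR adjusted p = 0.00247).

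**Figure D2:**
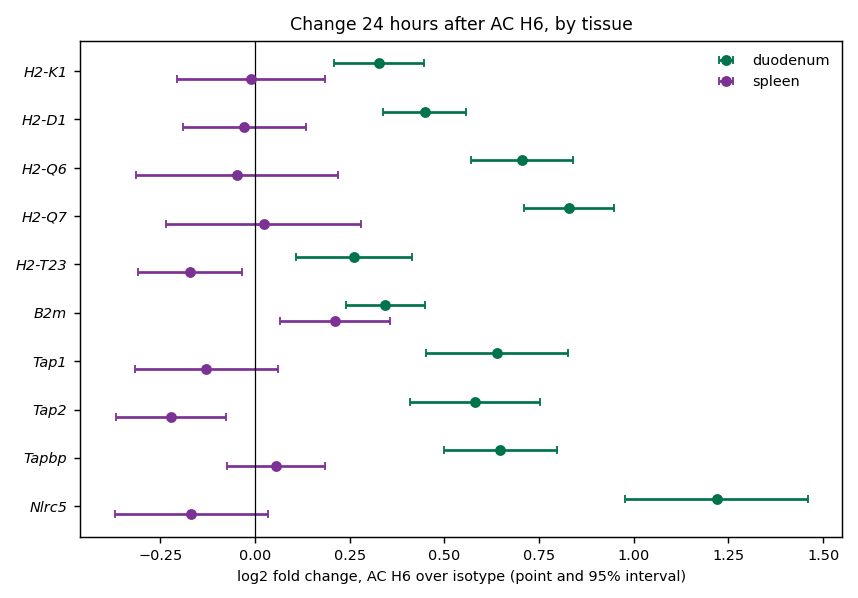
Log2 fold change of AC H6 over isotype for each gene, as a point with its 95% interval, in duodenum and in spleen (edgeR, 3 libraries per group). All 10 duodenum intervals lie above 0 and that of Nlrc5 reaches 1.46, while the spleen intervals lie between -0.37 and 0.36.

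Under isotype alone, the duodenum and the spleen differed in the make-up of the set. Nlrc5 averaged 4.42 ± 0.23 CPM in duodenum and 122 ± 8.30 CPM in spleen (SD, n = 3 each), so the duodenum held 3.63% of the spleen level. Its log2 difference, duodenum over spleen, was -4.81 ± 0.08 (SE; edgeR adjusted p = 6.61e-10). After AC H6 the duodenum level of Nlrc5 was 9.36% of the spleen level after AC H6. The lowest spleen library, at 98.8 CPM, remained far above the highest duodenum library, at 10.9 CPM.

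Under isotype the duodenum level ran from 3.63% of the spleen level for Nlrc5 to 130% for H2-T23, with H2-D1 between them at 67.6%. Of 10 genes, 6 were called lower in duodenum, against 43.8% of 16029 genes, and 3 higher, against 42.2%. H2-Q7 averaged 45.5 ± 2.17 CPM in duodenum isotype and 325 ± 25.6 CPM in spleen isotype, a log2 difference of -2.86, and for H2-Q6 the difference was -2.62. Tap1 had a log2 difference of -2.32, at 39.5 ± 4.11 CPM in duodenum isotype and 194 ± 14.8 CPM in spleen isotype (SD, n = 3 each), and that of its partner Tap2 was -1.28. H2-D1 differed by -0.59, and its edgeR adjusted p of 1.33e-04 was the largest of the 6.

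The genes called higher in duodenum differed by less. H2-T23 was at 362 ± 15.9 CPM in duodenum isotype and 279 ± 14.03 CPM in spleen isotype (SD, n = 3 each), a log2 difference of 0.35 (edgeR adjusted p = 6.74e-04). Tapbp differed by 0.26 (edgeR adjusted p = 0.00311). B2m differed by 0.26 as well (edgeR adjusted p = 0.0173), and its call was lost without spleen isotype replicate 1 (0.21, edgeR adjusted p = 0.0837) or spleen isotype replicate 2 (0.27, edgeR adjusted p = 0.0504). H2-K1 was at 1303 ± 23.7 CPM in duodenum isotype and 1445 ± 100.1 CPM in spleen isotype, a log2 difference of -0.17 that edgeR did not call (adjusted p = 0.103) and limma-voom did (adjusted p = 0.0125).

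The Qa-2 rows took a different share of the class I heavy chain counts in each tissue. H2-Q6 and H2-Q7 together held 4.31% ± 0.03 of the 5 heavy chain rows in duodenum AC H6 and 3.27% ± 0.22 in duodenum isotype (SD, n = 3 each). In the spleen they held 16.1% ± 0.99 under AC H6 and 15.9% ± 0.36 under isotype. H2-T23 had its larger share in the duodenum, with 12.9% ± 0.32 in duodenum AC H6 and 13.9% ± 0.42 in duodenum isotype, against 7.16% ± 0.57 in spleen AC H6 and 7.87% ± 0.18 in spleen isotype. H2-K1 had the largest share in each group, 48.5% ± 0.47 and 50.2% ± 0.63 in duodenum AC H6 and duodenum isotype, and 41.3% ± 0.80 and 40.8% ± 0.51 in spleen AC H6 and spleen isotype.

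**Figure D3:**
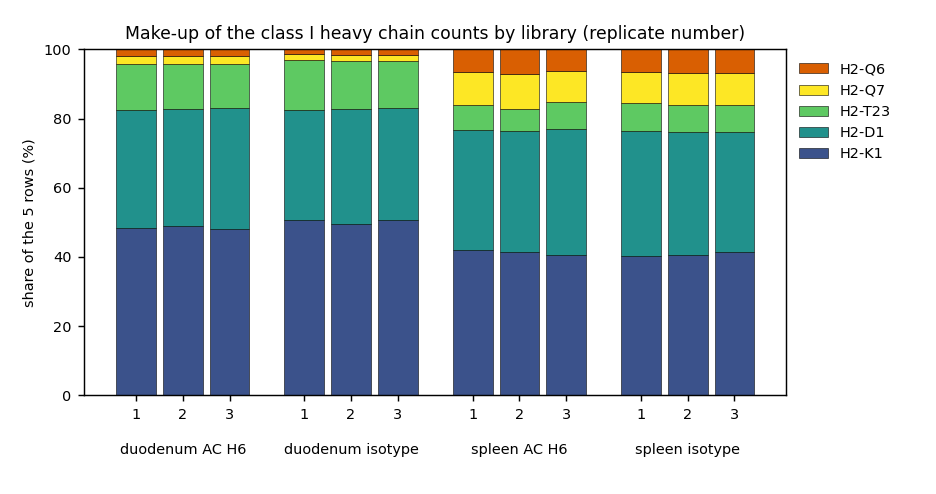
Share of each heavy chain row in the summed CPM of the 5 rows, in percent, as 1 stacked bar per library, with the replicate number under each bar. H2-Q6 and H2-Q7 fill 15.2% to 17.2% of each spleen AC H6 bar and at most 4.33% of any duodenum bar.

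Other ratios within the set also separated the tissues. Tap1 to Tap2 in CPM was 0.726 in duodenum AC H6 and 0.697 in duodenum isotype, against 1.54 ± 0.05 in spleen AC H6 and 1.44 ± 0.08 in spleen isotype. The 5 heavy chain rows summed to 2.40 ± 0.08 times B2m in spleen AC H6 and 2.83 ± 0.08 times in spleen isotype, with no overlap between these groups of 3. Per kilobase of exon, B2m was the most abundant gene of the set in every group, with 2217 ± 53.5 CPM per kilobase in duodenum AC H6 and 1768 ± 33.4 in duodenum isotype, and 1682 ± 103 in spleen AC H6 and 1454 ± 48.0 in spleen isotype. Nlrc5 was the least abundant in every group on the same scale, with 1.19 ± 0.08 and 0.521 ± 0.027 CPM per kilobase in duodenum AC H6 and duodenum isotype. In spleen AC H6 and spleen isotype it had 12.8 ± 1.26 and 14.4 ± 0.98 CPM per kilobase.

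Set in order over the 4 groups, the genes gave several patterns. Nlrc5, Tap1, Tap2, H2-Q6 and H2-Q7 were lowest in duodenum isotype, next in duodenum AC H6, and highest in the spleen groups, whose ranges overlapped except for Tap2. Tapbp and H2-T23 were highest in duodenum AC H6 and second in duodenum isotype. B2m was highest in duodenum AC H6 and lowest in spleen isotype. H2-K1 was highest in duodenum AC H6 by mean, at 1616 ± 67.7 CPM, but spleen AC H6 replicate 2, at 1589 CPM, fell within the range of that group. H2-D1 was lowest in duodenum isotype, and its duodenum AC H6 range of 1118 to 1172 CPM overlapped the spleen AC H6 range of 1143 to 1334 CPM.

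How reads were assigned limits what single class I rows mean. The header of the count column states that reads with several matches are kept, and the transcripts of this family are alike. In GENCODE M21 transcripts, 31.97% of 50-base windows of H2-Q6 and 26.4% of those of H2-Q7 occur in another gene as well, against 13.6% for H2-T23, 12.8% for H2-D1 and 9.63% for H2-K1. For Tap1 and Tap2 the share was 0.442% and 0.655%, for Tapbp 2.87%, and for B2m and Nlrc5 0. H2-Q7 carried the same counts as the row H2-Q9 in 12 of 12 libraries, so these rows are 1 measurement. In GENCODE M21 the genes sharing most windows with H2-Q7 were H2-Q10, H2-Q5, H2-Q6 and H2-K1, without H2-Q9. The annotation that was counted is not given, so these window shares can miss partners and do not measure the reads shared here. The split among class I rows is therefore uncertain, and a read counted in several rows enters their sum more than once.

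Overlapping genes matter too, since the library kit does not mark strand. Tap1 and Psmb9, an immunoproteasome subunit, start 211 bases apart in opposite directions and overlap at chr17:34187553-34187764. The Psmb9 row had at most 79.7% of the counts of Tap1 in duodenum AC H6 and 98.2% in duodenum isotype, and at most 47.1% in spleen AC H6 and 42.2% in spleen isotype. The part of shared reads in either row was not tested. Psmb9, named here for that overlap after its values were seen, rose in the duodenum by 0.39 ± 0.07 (SE; edgeR adjusted p = 0.00437), at 41.5 to 50.4 CPM in AC H6 and 34.7 to 36.1 CPM in isotype. Tapbp overlaps Zbtb22 on its own strand, a row with at most 15.8% of its counts. H2-T23, B2m and Nlrc5 overlap A930015D03Rik, Patl2 and 9330175E14Rik on the other strand, rows with at most 2.84%, 0.0412% and 5.50% of their counts. Tap2 also overlaps Gm20496 and Gm15821, on the other strand, whose levels were not analysed here.

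Beyond the set, 59 other genes of the class I pathway were listed by role and 57 had a row. In the duodenum 21 of 53 tested were called higher and 2 lower, where 18.5% of all genes tested were called higher and 16.1% lower. The counts by role are small, and each stands beside those same shares. Of 13 other class I chains, 7 rose, among them H2-Q9, whose counts are those of H2-Q7, and 1 fell, and of 16 transcription factors and cofactors of class I promoters, 7 rose and none fell. Loading and trimming genes gave 2 of 5, immunoproteasome genes 2 of 5, relatives that bind B2m 1 of 4, and interferon receptors and their kinases 2 of 6 with 1 lower. Of 4 tested receptors that read class I, 0 were called. Over the 53 genes the median change was 0.20 on the log2 scale.

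Of these genes 5 of small p are named, H2-Q9 being the same counts as H2-Q7. H2-M2, a class I chain of the M region, had the largest change, at 6.12 to 9.09 CPM in duodenum AC H6 and 1.26 to 1.63 CPM in duodenum isotype, a log2 fold change of 2.40 ± 0.20 (SE; edgeR adjusted p = 9.12e-05). Ciita was at 19.8 to 23.2 CPM in AC H6 and 10.4 to 11.9 CPM in isotype and rose by 0.94 ± 0.09 (SE; edgeR adjusted p = 2.31e-04). Ifnar2, a subunit of the type I interferon receptor, rose by 0.54, and H2-Q4, another Q-region chain, by 0.56. The genes that fell, named after their values were seen because they were so few, were H2-T3 (-0.34), the chain of the thymus leukaemia antigen of gut epithelium, and the kinase Jak2 (-0.32). Irf1, an interferon-induced activator of class I promoters, was named after its values were seen and had a log2 fold change of -0.02 (edgeR adjusted p = 0.922).

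**Figure D4:**
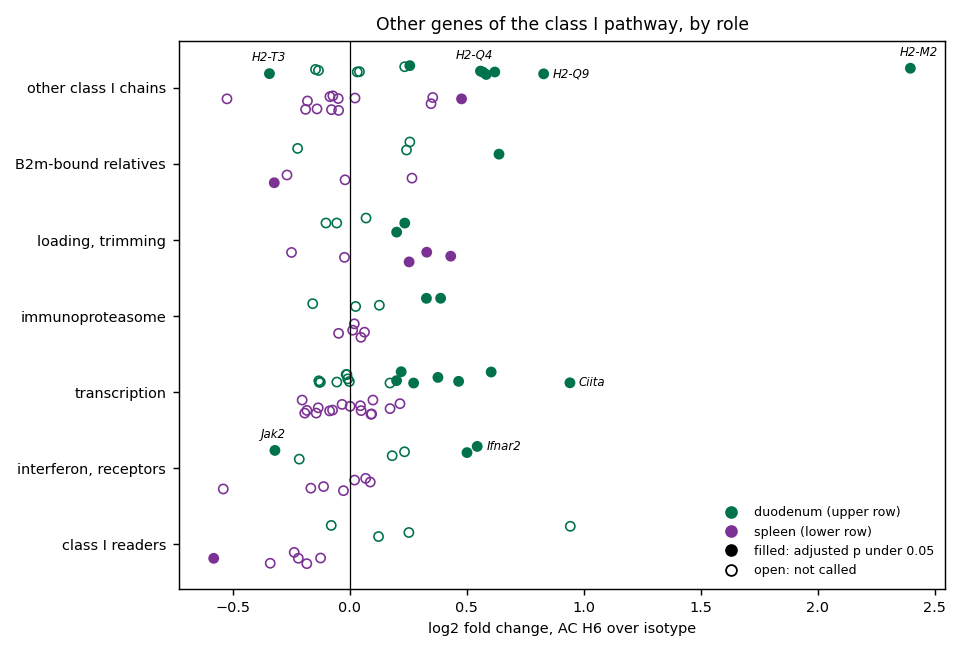
Log2 fold change of AC H6 over isotype for other genes of the class I pathway, by role, with duodenum in the upper and spleen in the lower row of each role (1 point per gene, filled where the edgeR adjusted p is under 0.05, vertical position within a row arbitrary). Filled duodenum points lie mostly right of 0, with H2-M2 at 2.40, while filled spleen points are few.

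In the spleen 4 of 56 tested were called higher and 2 lower, where 3.98% of all genes tested were called in either direction. Those higher included endoplasmic reticulum chaperones that help class I fold, with Calr at 492 to 521 CPM in spleen AC H6 and 359 to 383 CPM in spleen isotype (log2 fold change 0.43, edgeR adjusted p = 0.016). Canx rose by 0.33 and Pdia3 by 0.25, and the fourth, the secreted chain H2-Q10, by 0.48. The 2 that fell were Klrd1 and Cd1d1: Klrd1, the CD94 partner that binds Qa-1, changed by -0.58 (edgeR adjusted p = 0.0137), and Cd1d1, which shows lipids to NKT cells, by -0.32 (edgeR adjusted p = 0.0307). B2m moved the same way as these chaperones without being called by edgeR, and Calr also rose in the duodenum, by 0.24 (edgeR adjusted p = 0.0427).

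The interaction was called higher for 19 of the 56 tested, where 10.9% of all genes were, and lower for 5, near the 9.13% of all genes. Of the 6 of smallest p, H2-M2 had 2.90, Cd1d1 0.94, Ciita 1.11, Rfx5 0.65, H2-Q4 0.73 and Klrd1 0.81 on the log2 scale. Rfx5 is the subunit of the RFX complex through which Nlrc5 and Ciita reach their promoters. It stood at 17.8 to 19.6 CPM in duodenum AC H6 and 13.1 to 14.4 CPM in duodenum isotype, and at 55.5 to 62.0 CPM in spleen AC H6 and 65.1 to 68.7 CPM in spleen isotype. Under isotype alone 33 of the 56 were lower in duodenum and 18 higher, in a comparison that called 43.8% of all genes lower and 42.2% higher. The 6 of smallest p there were H2-Q2, H2-T3, Ciita, Cd1d1, H2-Q9 and Cd8b1, with log2 differences of 7.93 and 9.17 for H2-Q2 and H2-T3 and of -4.37, -4.13, -2.86 and -6.91 for the others.

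The genes most alike in pattern were sought for Nlrc5, Tap1 and B2m over the 12 libraries, among 12162 genes, by the root mean square difference of log2 CPM centred on each gene's mean. For Nlrc5 they were Il2rg, the common gamma chain of cytokine receptors, at 0.10, Apbb1ip, an adaptor of integrin activation in leukocytes, at 0.13, and BC013712 at 0.16. Il2rg had log2 fold changes of 1.29 in duodenum and -0.06 in spleen, and a difference of -4.87 between duodenum and spleen under isotype. For Tap1 they were H2-Q4 at 0.09, Rfx5 at 0.10 and Pml, the scaffold of nuclear bodies, at 0.11. For B2m they were Ints3, a subunit of the Integrator complex, at 0.05, Anks1 at 0.08 and the myosin Myo10 at 0.09. The median over all genes was 2.08 for Nlrc5, 1.04 for Tap1 and 0.55 for B2m, and the nearest gene of the set itself lay at 0.84 from Nlrc5 (H2-Q7), 0.20 from Tap1 (H2-Q6) and 0.18 from B2m (Tapbp). The treatment and tissue comparisons share libraries, so these distances describe the 12 libraries only.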

How the data were processed

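RNA was sequenced from 12 libraries, with groups taken from the tissue and treatment labels and replicate numbers from the titles. Per the labels' protocols, total RNA was made into libraries with a TruSeq kit. The build was mm10 and the tools named were STAR 2.3, Trimmomatic, bcl2fastq 2.19 and edgeR, per the submitters' processing notes. Which tool counted reads, and on which annotation, is not given in the sources used here. Whole-number counts per gene were deposited by the authors as 1 table per library, and per the file headers reads with several matches are kept.

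From the counts, edgeR 4.0.16 in R 4.3.3 gave TMM factors, CPM and quasi-likelihood F-tests after filterByExpr, within each tissue on 6 libraries, for the interaction on 12 and between tissues on the 6 isotype libraries. A gene was called where its p, adjusted over all genes tested by Benjamini-Hochberg, was under 0.05. CPM levels use factors over all 12 libraries. A standard error is the size of the log2 fold change divided by the square root of F, and 95% intervals are from the t distribution. Levels per kilobase use exon lengths of GENCODE M21, where all 10 genes and 20953 of 23329 rows matched by symbol. The 5 heavy chain rows, and H2-Q6 with H2-Q7, were also summed and tested.

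The genes and lists were chosen with earlier results of these data known. Named are all 10 genes; from the list of other class I pathway genes at most 6 called per comparison by smallest p, of which 1 is not reported here; and the 3 genes most alike in pattern to Nlrc5, Tap1 and B2m, leaving out predicted models and genes under a mean log2 CPM of 1 (prior count of 2). Alternatives were RLE factors, no filter, a stricter filter, DESeq2 1.42.0, limma-voom (limma 3.58.1), 1 fit of 12 libraries, the replicate block, each library left out, and 15 abundant genes left out. Replicate numbers of duodenum isotype and spleen isotype deviated together (correlations 0.31, 0.49 and 0.15 over genes), a hint from the data of pairing. Those of duodenum AC H6 and spleen AC H6 did not throughout (0.16, 0.23 and -0.24), nor did those of AC H6 and isotype within a tissue.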

Additional observations from a re-analysis of the deposited data

Results flagged for a closer look

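For 8 of the 10 genes the change after AC H6 differed between duodenum and spleen by the test of the difference itself, the edgeR interaction of tissue and treatment over 12 libraries (duodenum change minus spleen change, log2 scale). Nlrc5 had 1.37 (edgeR adjusted p = 2.79e-05), beside changes of 1.22 in duodenum and -0.17 in spleen from the separate fits within each tissue. Of the heavy chains, H2-Q7 had 0.79 (edgeR adjusted p = 0.00194), H2-Q6 0.73 (edgeR adjusted p = 0.00419), H2-D1 0.46 (edgeR adjusted p = 0.00518) and H2-T23 0.41 (edgeR adjusted p = 0.00662). Of the loading genes, Tap2 had 0.78 (edgeR adjusted p = 3.92e-04), Tap1 0.75 (edgeR adjusted p = 0.00217) and Tapbp 0.57 (edgeR adjusted p = 5.55e-04). In the same comparison 10.9% of all genes tested were called higher and 9.13% lower. The summed dendritic cell markers were at 56.1 to 59.5 CPM in duodenum AC H6 and 28.7 to 32.5 CPM in duodenum isotype. In the interaction 6 of 6 dendritic cell markers and 6 of 6 T cell markers were called higher. So were 3 of 6 macrophage and monocyte markers, 2 of 5 B cell, 2 of 5 NK cell and 1 of 5 endothelial markers. Of 7 neutrophil markers 0 were called higher and 2 lower, and of 8 enterocyte markers 0 higher and 3 lower. The part of these cell types was not tested.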

How the results depend on the processing

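Over the alternatives, 620 member values were recomputed: 599 kept their direction and their side of the threshold, 7 became called, 5 lost a call and 9 turned direction, all 9 of these in the spleen. The spleen turns came from leaving out 1 library and concern values near 0: H2-K1 lay between -0.090 and 0.044, H2-D1 between -0.091 and 0.018, H2-Q6 between -0.18 and 0.041, H2-Q7 between -0.11 and 0.10, the summed 5 heavy chain rows between -0.10 and 0.013 and the summed Qa-2 rows between -0.14 and 0.073. Left out in turn, libraries moved the summed heavy chain interaction between 0.35 and 0.48. DESeq2 called 1 gene of the set in spleen, against 0 with edgeR. Over all genes, edgeR called 608 in spleen, DESeq2 1356, 1 fit of all 12 libraries 1390, and the fit with the replicate block 1. Without spleen AC H6 replicate 1, 2 or 3 it called 76, 1132 and 30, and without spleen isotype replicate 1, 2 or 3 it called 14, 68 and 104. In duodenum between 3979 and 5520 genes were called over all alternatives. With 1 library left out, 9 to 10 members were called in duodenum and 8 to 9 in the interaction. The replicate block changed no call of a gene of the set. Within each tissue and in the interaction, that block matched AC H6 and isotype libraries by number. Those libraries share only a number: their same-number correlations were 0.58, 0.34 and -0.23 in duodenum and 0.39, -0.07 and 0.03 in spleen. A match of spleen with duodenum libraries by number was not fitted in the interaction, so its effect on those calls was not tested. The causes of these shifts were not tested. Nlrc5 in duodenum isotype, at 91 to 120 counts, has the least depth of the set.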

Other observations

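Some class I rows outside the set belonged to 1 tissue almost wholly. H2-Q2 was at 607 to 672 CPM in duodenum AC H6 and 694.9 to 731 CPM in duodenum isotype, against 2.09 to 3.08 CPM in spleen AC H6 and 2.71 to 3.17 CPM in spleen isotype. H2-T3 was at 239 to 248 CPM in duodenum AC H6 and 297 to 323 CPM in duodenum isotype, and under 1 CPM in every spleen library. After AC H6 neither was called higher in duodenum, with log2 fold changes of -0.15 for H2-Q2 (edgeR adjusted p = 0.0871) and -0.34 for H2-T3 (edgeR adjusted p = 0.00321), in the libraries where all 10 genes of the set were higher. H2-M2 stood apart by the size of its rise in duodenum, and in spleen it was at 3.23 to 4.39 CPM under AC H6 and 5.04 to 6.10 CPM under isotype (log2 fold change -0.52, edgeR adjusted p = 0.0859).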
